A study of Mus musculus with 8 samples.

Results

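The 79 genes described here mostly encode parts of the splicing machinery: proteins of the small nuclear ribonucleoproteins (snRNPs), SR proteins and heterogeneous nuclear ribonucleoproteins (hnRNPs). They were chosen by symbol from the 14853 genes of the authors' comparison, as those whose names begin with Snrp followed by a letter from a to f or a digit (9 genes), Sf3a or Sf3b (9), Prpf (13), Lsm (13), U2af (3), Srsf (11) or Hnrnp (21). All 79 are called splicing genes below, though the rule also takes in genes such as Lsm1 and Lsm14b, whose proteins act elsewhere. RNA was sequenced from undifferentiated spermatogonia, the early germ cells of the testis from which sperm production is sustained, of C57BL/6 mice aged 8 to 12 weeks. All animals had received tamoxifen, carried the Cre-activated reporter Rosa lsl-tdTomato on 1 allele and a CreER allele at Tert, and were sampled at day 7. In the 4 samples called CreER/flox here (TERT-del in their titles) the other Tert allele was flanked by loxP sites, and in the 4 samples called CreER/+ (TERT-hetero) it was normal, so the controls also had 1 CreER allele at Tert. Tert encodes the reverse transcriptase of telomerase. The cells were sorted as MCAM-high, KIT-negative and tdTomato-positive, so they had undergone Cre activity driven from the Tert locus.

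Splicing removes introns from precursor mRNA. The U1, U2, U4, U5 and U6 snRNPs assemble on each intron, recognise its ends and branch site and form the catalytic centre, with Sm proteins as a ring around most of these small RNAs and LSm proteins around U6. SR proteins mostly favour and hnRNPs often oppose the use of nearby splice sites, and both also act in RNA export, stability and translation. Male germ cells are known for extensive alternative splicing.

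The deposited data set used here gives each gene a mean normalized count over the 8 samples, a log2 fold change of CreER/flox over CreER/+ and its standard error (SE). Values of single libraries were not used here, so neither the level in each group nor an overlap of the groups can be shown, and the 95% intervals below are computed from the SEs. A gene is called at an adjusted p under 0.05 by the authors' DESeq2 Wald test. The median SE was 0.09 for the splicing genes, which had a median mean count of 1169, and 0.17 for all genes, with a median mean count of 192. The labels do not say whether samples came from separate animals, and p-values then measure the spread between these samples, which may be technical. Tert itself stood at 0.29 (SE 0.26, adjusted p of 0.595) in the authors' deposited table, which does not check the labels, since the part of the gene removed by Cre is not stated in the labels. The sign follows the table's name, which sets flox against WT.

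Splicing genes were mostly a little higher in CreER/flox samples. Of 79 genes, 66 had a log2 fold change above 0 in the authors' deposited table, and the median was 0.12, or 1.08-fold, against 0.00071 over all genes. The authors' test called 6 of them higher, or 7.59%, where the background over all genes was 1.94%, or 5.36% in either direction. None was called lower by that test (background 3.42%). At an unadjusted p under 0.05, 24 were higher (background 9.15%) and 3 were lower (background 10.5%). Among the 5885 genes with a mean count of 300 to 20000, where 73 of the splicing genes lie, the median was 0.041, 60.5% of genes were above 0 and 3.16% were called higher and 2.38% lower. No splicing gene stayed called when the Wald statistics were referred to a t distribution with 6 degrees of freedom, under which no gene of the table passed, or to the wider null distribution estimated from the table itself.

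**Figure D1:**
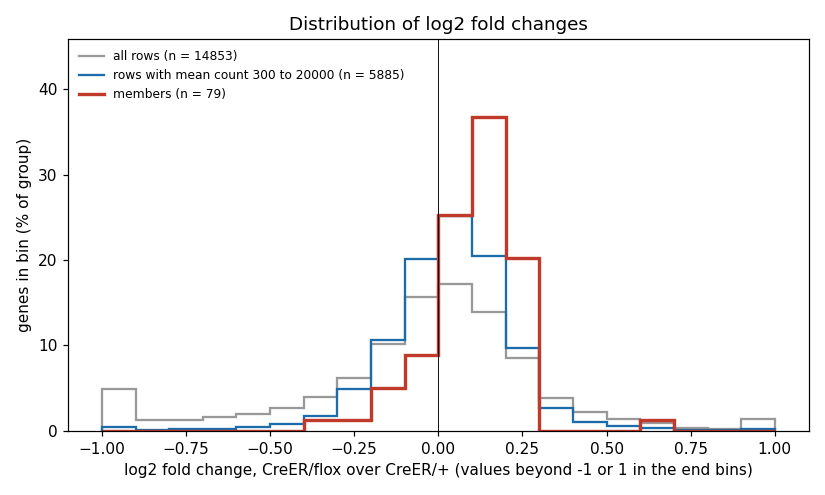
Histogram of log2 fold changes (horizontal axis, bins of 0.1) as the percentage of genes in each group (vertical axis) for the splicing genes (red), genes of like mean count (blue) and all genes (grey). The splicing genes peak between 0.1 and 0.2, to the right of both other groups.

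Among the splicing genes, fold changes tended to be higher for shorter transcripts and, taken separately, for GC-poorer ones. The 12 splicing genes whose longest GENCODE transcript is under 1500 bases had a median of 0.22, and the other 67 had a median of 0.11, against 0.018 and 0.00027 for protein-coding genes split the same way. The 12 short genes were not GC-poorer, with a median GC content of 50.6% against 45.8% for the other 67. They include the row for Hnrnpa1l2-ps2 described below. Across the 79 splicing genes, the log2 fold change had a Pearson r of -0.32 (Spearman -0.29) with transcript length and -0.39 (-0.39) with GC content, and of -0.05 (-0.18) with mean count. Over 13694 protein-coding genes the same values were 0.016 (-0.08) for length, -0.10 (-0.17) for GC content and 0.23 (0.21) for mean count. These correlations are across genes measured in the same libraries, and genes are not independent replicates. After a trend of fold change with length, GC content and mean count over protein-coding genes was removed, the median of the splicing genes was 0.038, with 47 of 79 above 0, against 0.024 for protein-coding genes, of which 7515 of 13694 were above 0. Of the 6 called genes, 1 passed after this step. The sign turned in 19 of the 79 genes, which include Hnrnpk (-0.005), Hnrnpa1 (-0.045), Hnrnpa3 (-0.051), Hnrnpa2b1 (-0.018), Hnrnph1 (-0.12), Prpf6 (-0.036) and Snrpb (-0.024).

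**Figure D2:**
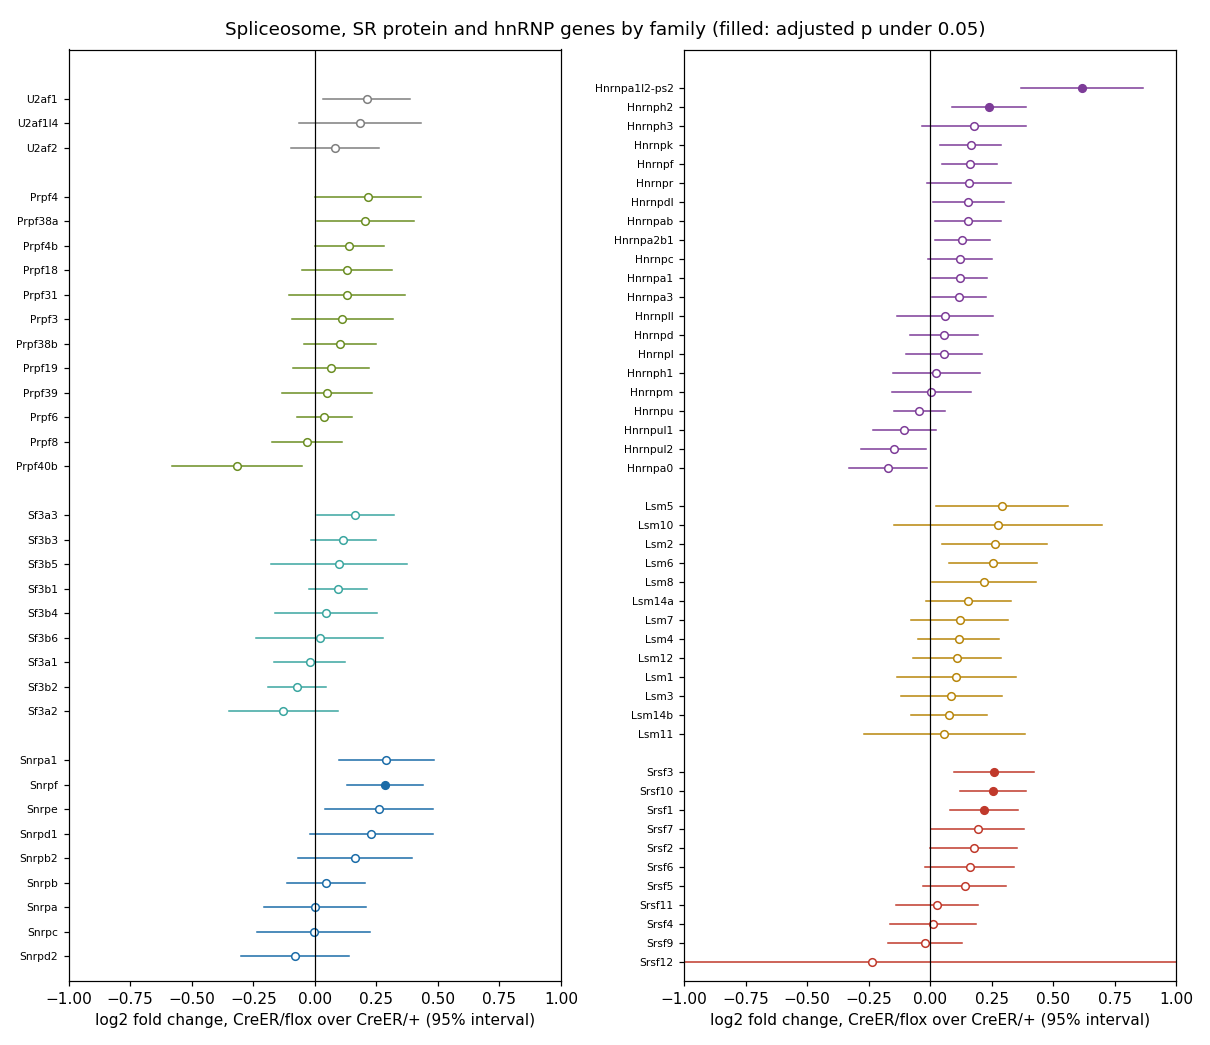
Log2 fold change (horizontal axis) with its 95% interval for 78 of the 79 genes, grouped by family, with filled points for those called. The called genes are Snrpf, Srsf1, Srsf3, Srsf10, Hnrnph2 and the row for Hnrnpa1l2-ps2, and the interval of the sparsely counted Srsf12 runs off both ends of the axis.

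The strongest call was of a row whose identifiers disagree. The authors' deposited table has 2 rows with the symbol and the Ensembl ID of Hnrnpa1, which differ in their Entrez ID. The row keyed by Entrez gene 15382 is Hnrnpa1 itself, which encodes an abundant hnRNP that often represses splice sites. It had a mean count of 8250 and a log2 change of 0.12 (SE 0.06, adjusted p of 0.215) in the authors' deposited table and was not called. RefSeq names the other, Entrez gene 545091, as Hnrnpa1l2-ps2, on chromosome 15 from 22713820 to 22714984 of GRCm38. There it lies on the minus strand within the span of the plus-strand gene Cdh18, and GENCODE M21 types it as a processed pseudogene, whereas RefSeq types it as protein-coding. It was kept among the protein-coding genes in the removal of trends above. The row is called Hnrnpa1l2-ps2 here by its Entrez ID. For this row the authors' deposited table gave a mean count of 380, a log2 fold change of 0.62 (SE 0.13) and an adjusted p of 0.00045. The fold was 1.53, with a 95% interval of 1.29 to 1.82.

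The retrocopy and the coding sequence of Hnrnpa1 differ at 22 of 963 bases (97.7% identity), and the longest stretch without a difference has 131 bases. Reads from either could therefore be counted for the other, and how the authors treated reads that map to several places is not stated by the labels or processing notes. The value of each row is uncertain for that reason.

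The ring-forming Sm and LSm genes were nearly all above 0, with 1 call among them. The Sm ring is built from B, D1, D2, D3, E, F and G. Snrpf, the F subunit, was called, with a mean count of 2501 and a log2 change of 0.28 (SE 0.08, adjusted p of 0.0122) in the authors' deposited table, or 1.22-fold (95% interval 1.10 to 1.35). Its partner in ring assembly, Snrpe, stood at 0.26 (SE 0.11, adjusted p 0.150), and Snrpd1 at 0.23 (SE 0.13, adjusted p of 0.307), in the authors' deposited table. The remaining ring genes under the rule, Snrpb (0.046, SE 0.08) and Snrpd2 (-0.08, SE 0.11), were near 0 in the authors' deposited table. Outside the rule, Snrpg, the G subunit, had the highest value of the ring, 0.42 (SE 0.15, adjusted p of 0.0798), in the authors' deposited table. The Snrpd3 row has no symbol there, was identified by its gene ID and stood at 0.21 (SE 0.11, adjusted p of 0.268) in the authors' deposited table. Thus 6 of 7 ring genes were above 0, with a median of 0.23 and 1 called. Over all genes 50.1% were above 0 and 1.94% were called higher. Among genes with a mean count of 300 to 20000 these shares were 60.5% and 3.16%. The ring was grouped after the values were seen.

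LSm2 to LSm8 form the ring on U6 RNA, and LSm1 replaces LSm8 in the cytoplasmic ring that acts in mRNA decay. Every one of the 13 Lsm genes was above 0 in the authors' deposited table, from 0.057 for Lsm11 to 0.29 for Lsm5, with a median of 0.12, and none was called by DESeq2 (4 at an unadjusted p under 0.05, where the background is 9.15% higher). The share above 0 was 50.1% over all genes and 60.5% over genes with a mean count of 300 to 20000. The lowest p was that of Lsm6 (0.25, SE 0.09, adjusted p of 0.0770) in the authors' deposited table, followed by Lsm2 (0.26, SE 0.11, adjusted p 0.135). The 7 genes of the U6 ring had a median of 0.22. Lsm14b, a P-body protein gene and the family's most counted member (mean count 1476), stood at 0.08 (SE 0.08) in the authors' deposited table. After the trend was taken out, 13 of 13 Lsm genes were still above 0, with a median of 0.13, whereas the 9 Snrp genes had a median of 0.071, with 5 above 0. Of protein-coding genes, 7515 of 13694 were above 0 after this step. Snrpf was at 0.16 and no longer called (adjusted p 0.259).

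Of the proteins specific to U1 or U2, none was called. Snrpa1, the U2 protein A′, was just short of a call at 0.29 (SE 0.10, adjusted p of 0.0553) in the authors' deposited table, and passed (adjusted p 0.04995) when p-values were adjusted over those genes that averaged 100 counts or more. Its adjusted p was 0.189 with the trend removed, 0.439 with the t distribution and 0.726 with the estimated null SD. Its partner Snrpb2, U2 protein B″, stood at 0.16 (SE 0.12) in the authors' deposited table. The U1 proteins Snrpa (0.00073, SE 0.11) and Snrpc (-0.0037, SE 0.12) were at 0 within their error in the authors' deposited table. Whether the U1 and U2 values differ was not tested.

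**Figure D3:**
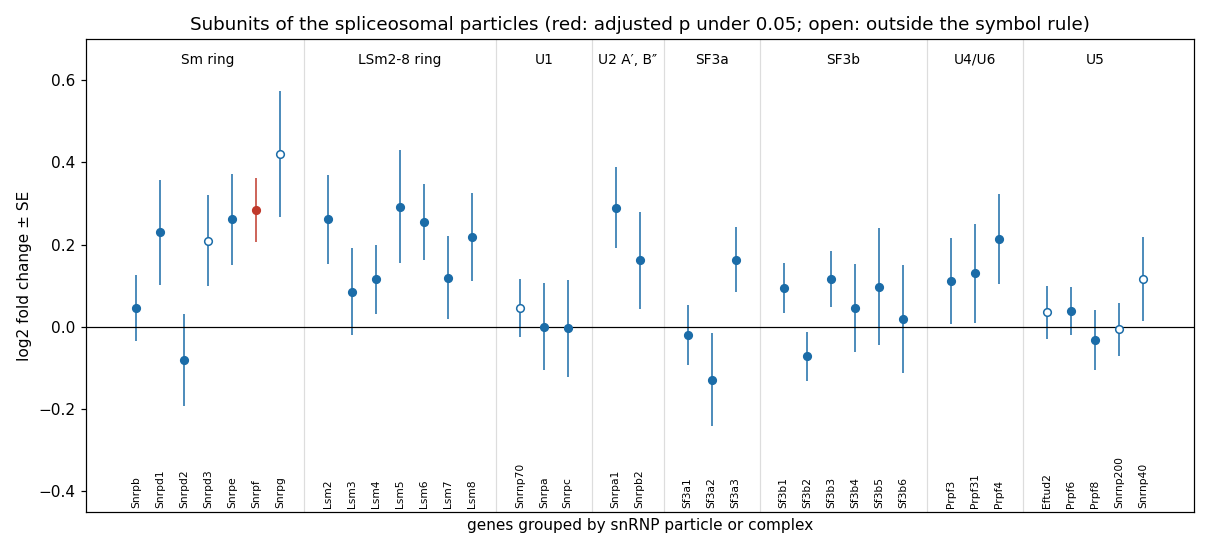
Log2 fold change with SE (vertical axis) of subunits grouped by particle or complex, with open points for genes outside the symbol rule. Snrpf is the single called subunit (red). Most Sm and LSm genes lie above 0.1, and the U1, SF3a and U5 genes scatter around 0.

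SF3a and SF3b are the U2 subcomplexes that hold the branch site, and Sf3b1 encodes the subunit that clamps it. None of the 9 genes was called by DESeq2 (1 higher and 0 lower at an unadjusted p under 0.05), with values from -0.13 to 0.16 and a median of 0.045. At that unadjusted threshold 9.15% of all genes were higher and 10.5% lower. Sf3a3 was highest at 0.16 (SE 0.08, adjusted p 0.225) and Sf3a2 lowest at -0.13 (SE 0.11, adjusted p of 0.582) in the authors' deposited table, and both proteins belong to the SF3a trimer. The most counted gene, Sf3b2 (mean count 5115), stood at -0.07 (SE 0.06) in the authors' deposited table, and Sf3b3 at 0.12 (SE 0.07, adjusted p 0.341). The span of Sf3b3 holds the small nucleolar RNA Snord111, which was called higher (1.68, SE 0.50, adjusted p of 0.0255) in the authors' deposited table; its part in the value of Sf3b3 was not tested. No called splicing gene holds an annotated short RNA.

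The U2af genes encode the heterodimer that reads the polypyrimidine tract and the 3′ splice site. U2af1, the small subunit, stood at 0.21 (SE 0.09, adjusted p 0.154), its paralog U2af1l4 at 0.18 (SE 0.13) and U2af2, the large subunit, at 0.08 (SE 0.09), in the authors' deposited table. All 3 values were above 0 and none was called by DESeq2 (U2af1 at an unadjusted p under 0.05). Over all genes 50.1% were above 0, and 9.15% were higher at an unadjusted p under 0.05.

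Prpf genes, named for yeast precursor RNA processing mutants, encode proteins of several particles. Of 13, 11 were above 0 with a median of 0.11, and none was called by DESeq2 (2 higher and 1 lower at an unadjusted p under 0.05). The backgrounds over all genes were 50.1% above 0, and 9.15% higher and 10.5% lower at that unadjusted threshold. Among genes with a mean count of 300 to 20000, 60.5% were above 0. The U4/U6 proteins were at 0.21 for Prpf4 (SE 0.11, adjusted p 0.256), 0.13 for Prpf31 (SE 0.12) and 0.11 for Prpf3 (SE 0.10) in the authors' deposited table. Prpf8, the large U5 protein at the heart of the catalytic centre and the most counted of the family (mean count 5464), was at -0.03 (SE 0.07) in the authors' deposited table. Its U5 partner Prpf6 was at 0.04 (SE 0.06) in the authors' deposited table. Prpf40b, a relative of a yeast U1 protein, had the lowest value of all 79 genes, -0.32 (SE 0.13, adjusted p of 0.152), in the authors' deposited table and was not called.

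SR proteins, which carry arginine-serine repeats and bind exonic enhancers, were the family with the most calls. Of 11 Srsf genes 9 were above 0, with a median of 0.16, and 3 were called higher, where 1.94% of all genes and 3.16% of genes of like mean count were. The shares above 0 were 50.1% of all genes and 60.5% of genes of like mean count. Srsf10, a regulator whose splicing activity depends on its phosphorylation, had a log2 change of 0.25 (SE 0.07, adjusted p of 0.0104, mean count 2045) in the authors' deposited table, or 1.19-fold (95% interval 1.09 to 1.31). Srsf3, the smallest classical SR protein and an mRNA export adaptor, was at 0.26 (SE 0.08, adjusted p of 0.0385, mean count 2491) in the authors' deposited table, or 1.20-fold (1.07 to 1.34). Srsf1, the founding SR protein, was at 0.22 (SE 0.07, adjusted p of 0.0407, mean count 2785) in the authors' deposited table, or 1.16-fold (1.06 to 1.28). All 3 calls are of genes with larger mean counts than any other SR gene.

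No other SR gene was called. Srsf7 (0.19), Srsf2 (0.18), Srsf6 (0.16) and Srsf5 (0.14) had SEs of 0.09 to 0.10 in the authors' deposited table, and none of them passed. Srsf11 (0.03), Srsf4 (0.01) and Srsf9 (-0.02) were within 1 SE of 0 in the authors' deposited table. Srsf12 was barely counted (mean count 12.6) and its value of -0.24 (SE 0.66) in the authors' deposited table gives no direction. Removal of the length, GC and mean count trend left Srsf10 at 0.12 (adjusted p 0.362), Srsf3 at 0.12 (0.508) and Srsf1 at 0.09 (0.562), so these calls ended.

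Most hnRNP genes lay in a narrow band above 0, with a few below. Of 21 rows 17 were above 0, with a median of 0.12, and 2 were called higher, the retrocopy described above and Hnrnph2. The share called higher was 1.94% over all genes and 3.16% over genes of like mean count, and the share above 0 was 50.1% and 60.5%. Hnrnph2, an X-linked gene for a protein that binds G-rich RNA, was at 0.24 (SE 0.08, adjusted p of 0.0425, mean count 1242) in the authors' deposited table, or 1.18-fold (95% interval 1.06 to 1.31). Its close relative Hnrnph1 stood at 0.02 (SE 0.09, adjusted p of 0.925) in the authors' deposited table. The 2 genes are close paralogs whose reads the counting could have split, so the value of each is uncertain. Hnrnpf, of the same H/F subfamily, was at 0.16 (SE 0.06, adjusted p 0.0736) with a mean count of 9789 in the authors' deposited table. Hnrnpk, which binds C-rich RNA, was also at 0.16 (SE 0.06, adjusted p of 0.102) in the authors' deposited table.

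The A and B type hnRNPs Hnrnpa3 (0.12), Hnrnpa2b1 (0.13) and Hnrnpab (0.15) had SEs of 0.06 to 0.07 in the authors' deposited table, and none of them passed. Below 0 in the authors' deposited table were Hnrnpa0 (-0.17, SE 0.08, adjusted p 0.200) and the genes of the U subfamily, Hnrnpul2 (-0.15, SE 0.07, adjusted p 0.189), Hnrnpul1 (-0.11, SE 0.07, adjusted p 0.378) and Hnrnpu (-0.04, SE 0.05, adjusted p 0.722). Hnrnpu, a chromatin-associated hnRNP, had the largest mean count of the 79 genes (11298). Per kilobase of longest transcript Hnrnpf was the most counted, at 4077 mean counts per kilobase, followed by Snrpf at 2905 and Hnrnpa1 at 2646.

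With the trend removed, 7 of 21 hnRNP rows were above 0, with a median of -0.015. Of the 13694 protein-coding genes in that fit, 7515 were above 0, 0.884% were called higher and 2.09% lower. Called among the splicing genes were Hnrnpa1l2-ps2 (0.63, adjusted p 0.00036) and Hnrnpr (0.28, adjusted p 0.0451) on the higher side and Hnrnpu (-0.18, adjusted p 0.0367) on the lower side. The longest annotated transcript of Hnrnpr has 21452 bases, the longest of all members, so its fitted trend rests on an extreme length.

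**Figure D4:**
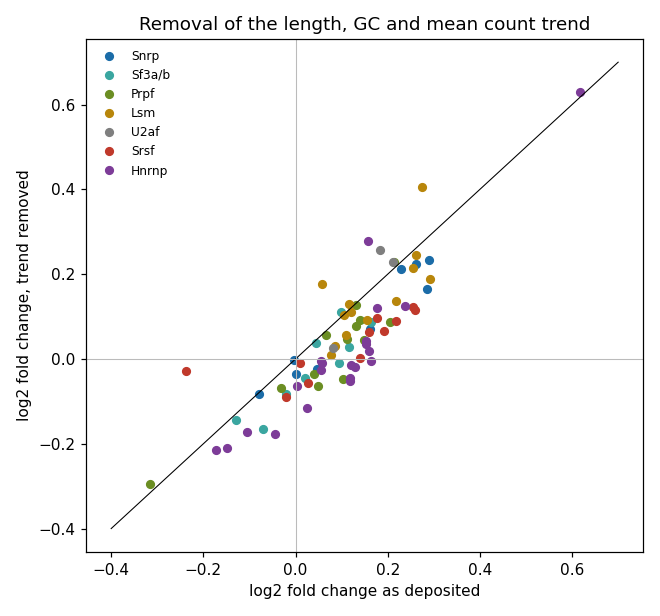
Log2 fold change of the 79 genes as deposited (horizontal axis) and after removal of the length, GC and mean count trend (vertical axis), coloured by family, with the line of equality. Most points lie below the line, and Hnrnpa1l2-ps2 keeps its value (0.62 and 0.63).

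Other genes of the pathway, taken from lists that leave out the 79 genes, were mixed. For comparison with every list below, 50.1% of all genes were above 0, 1.94% were called higher and 3.42% lower. At an unadjusted p under 0.05, 9.15% of all genes were higher and 10.5% lower. Among genes with a mean count of 300 to 20000, 60.5% were above 0. Of 27 other core snRNP proteins 19 were above 0 (median 0.073) and 2 were called higher in the authors' deposited table, Zcrb1 of the minor spliceosome (0.30, SE 0.09, adjusted p 0.0302) and Snu13 of the U4/U6.U5 particle (0.33, SE 0.10, adjusted p 0.0315). Neither passed with the trend removed (adjusted p 0.239 for Zcrb1 and 0.177 for Snu13). Among 31 spliceosomal ATPases and catalytic-step factors, 22 were above 0 (median 0.035) and none was called by DESeq2 (5 higher and 1 lower at an unadjusted p under 0.05). The SMN complex and its partners, which load Sm rings onto snRNAs, had 14 of 16 genes above 0 and a median of 0.15, with 0 called by DESeq2 and 5 higher at an unadjusted p under 0.05. Gemin7 (0.52, SE 0.19, adjusted p 0.0849) was the highest of these in the authors' deposited table, and it passed with the trend removed (0.61, adjusted p 0.0498).

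SR protein kinases and SR-related proteins lay mostly below 0. Of 21 measured, 7 were above 0 (median -0.04), and the difference from the SR genes was not tested. The authors' deposited table had Scaf1 higher (0.37, SE 0.10, adjusted p 0.00738) and Acin1, of an exon junction associated complex, lower (-0.29, SE 0.09, adjusted p 0.0342). With the trend removed Scaf1 (0.36, adjusted p 0.0141) and Acin1 (-0.34, adjusted p 0.0148) stayed called. In the exon junction complex and export list 11 of 20 genes were above 0, and Magoh, a core junction subunit, was called higher (0.36, SE 0.10, adjusted p of 0.0103) in the authors' deposited table but did not pass with the trend removed (adjusted p 0.0978). Other splicing regulators had 30 of 44 genes above 0, a median of 0.053 and 0 calls by DESeq2 (5 higher and 2 lower at an unadjusted p under 0.05). With the trend removed, Wbp11 of the catalytic-step list (-0.28, adjusted p 0.0170), Upf2 of the junction and export list (-0.24, 0.0451) and the regulators Rbm25 (-0.34, 2.96e-05) and Sltm (-0.29, 0.0477) were called lower.

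**Figure D5:**
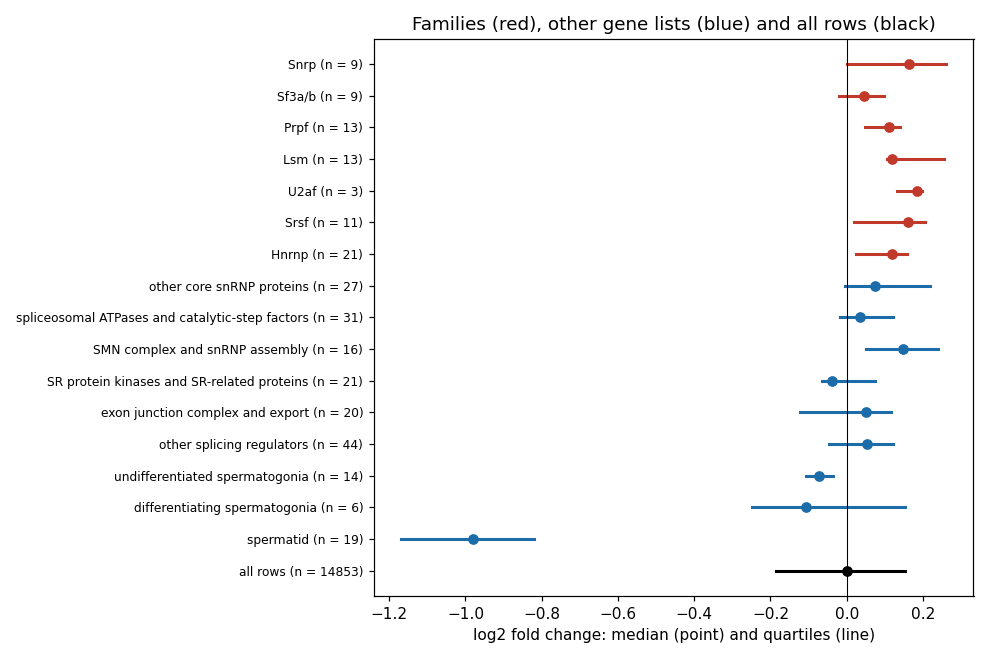
Median log2 fold change (points) and quartiles (lines) of the 7 splicing families, of other gene lists and of all genes, with the number measured. All 7 family medians are above 0, that of SR kinases and SR-related proteins is -0.04, and spermatid markers lie near -1.

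Cell type markers bear on these values because total RNA of a sorted population was measured, so fewer cells of a type and less RNA per cell cannot be told apart. Of 14 markers of undifferentiated spermatogonia, all measured and at a median mean count of 2316, 12 were below 0, with a median of -0.07. Among genes with a mean count of 300 to 20000, 2324 of 5885 were below 0. None of the 14 markers was called by DESeq2 (0 higher and 2 lower at an unadjusted p under 0.05). With the trend removed Zbtb16 (-0.25, adjusted p 0.0167) and Ret (-0.28, adjusted p 0.0391) were called lower and the median was -0.13. Of 6 markers of differentiating spermatogonia, 4 were below 0, with a median of -0.11. None of them was called by DESeq2 (2 higher and 1 lower at an unadjusted p under 0.05). Spermatid markers were lower in CreER/flox samples, with 19 of 19 below 0, 7 called and a median of -0.98 in the authors' deposited table. Over all genes 49.9% were below 0 and 3.42% were called lower. At an unadjusted p under 0.05 the shares over all genes were 9.15% higher and 10.5% lower. Markers of other testis cells were mostly sparse. For Sertoli cells 6 of 9 were measured, for Leydig and myoid cells 4 of 9, for leukocytes and endothelium 4 of 8, with Ptprc among those not listed, and for erythroid cells 5 of 5, at summed mean counts of 429, 168, 207 and 193. In the last sum the identical rows of Hba-a1 and Hba-a2 were counted once (300.4 with both). In the authors' deposited table Trf of Sertoli cells was called higher (0.62, SE 0.15) and Actg2 of smooth muscle lower (-1.17, SE 0.37). Trf had a mean count of 316, most of the Sertoli sum of 429. The other Sertoli markers went either way, with 3 of the 6 below 0, among them Sox9 (-0.50, SE 0.49) and Clu (-0.36, SE 0.39) in the authors' deposited table. Actg2 did not pass with the trend removed (adjusted p 0.0836). The part of the spermatid markers in the values of the splicing genes was not tested.

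Promoters were searched for what the genes share besides their names. RefSeq promoter windows of GRCm38.p6, 250 bases before to 50 after the start, were matched for 67 of the 79 genes. A gene with several annotated starts was counted as holding a motif if any of its windows did. The number of windows per gene was not compared between the groups. The letters CCGGAAGT, a site of ETS family factors, were found on either strand in 12 of 67 (17.9%), against 8.48% of 11639 genes of the comparison with a window. The E box CACGTG was in 9 of 67 (13.4%) against 11.8%, and the NRF1 site, GCGCA followed directly by TGCGC, in 1 of 67 (1.49%) against 2.17%. The searched motifs do not overlap one another. Of the 6 called genes, Hnrnph2 held an E box and none held the ETS letters. A match is a description of letters and not a bound site. Windows of 30 bases around the ETS letters, in capitals, are shown for the genes above 0 at an unadjusted p under 0.05 that hold them, read 5′ to 3′ along the gene.
Hnrnpf (chr6:117900279-117900308, plus strand): ggggctgcacaCCGGAAGTccctgtgcttc
Lsm5 (chr6:56704665-56704694, minus strand): tgtccttagccACTTCCGGcgtggccatgg
Sf3a3 (chr4:124714759-124714788, plus strand): tcccccaagacACTTCCGGgacacgcggaa
Snrpe (chr1:133610256-133610285, minus strand): gggtcttgcttCCGGAAGTcgctttccgag
The E box of Hnrnph2 is shown with its capitals in the same way, being the single motif found in a called gene.
Hnrnph2 (chrX:134601182-134601211, plus strand): ccgagagttgctCACGTGaccgagatctca
In Lsm5 and Sf3a3 the letters are those of the reverse complement. The sites of Lsm5, Snrpe and Hnrnph2 begin after the annotated start, and those of Hnrnpf and Sf3a3 begin 50 and 91 bases before it.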

How the data were processed

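Total RNA sequencing libraries of 4 CreER/flox and 4 CreER/+ samples were made with a stranded low-input kit, per the labels' protocols. Reads were handled with Trim Galore, Bowtie, Bowtie2 2.0.0-6, TopHat2 2.0.4 and DESeq2 against mm10 or GRCm38, per the submitters' processing notes. Their read counter, strand setting and annotation were not named in the sources used here. Per the file headers, the authors' mean is a signal of normalized counts across the 8 libraries. The deposited fold changes and SEs are log2 values, and the deposited score is the Wald statistic. Each deposited p-value was that of a 2-sided normal test of this statistic (within 0.424%), and each adjusted p-value was the Benjamini-Hochberg value over 14853 rows (within 0.426%).

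No model was refitted, and library totals were not used here. Members were found by the table's symbol, and 14828 rows matched RefSeq GRCm38.p6 by gene ID. The trend was a least-squares fit of linear and squared terms of log2 length, GC content and log2 mean count over 13694 protein-coding rows. Lengths and GC were those of the longest GENCODE M21 transcript. Alternatives were other thresholds, a minimum fold, other adjustments, other null distributions, centring, this trend and other member definitions. The normal test, the other null distributions, the centring and the trend were run on simulated data, and the remaining alternatives were not. The scripts used matplotlib 3.10.9, scipy 1.17.1, numpy 2.4.6 and pandas 2.3.3 under Python 3.11.15.

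The members and gene lists were chosen with earlier results of these data known, and the grouping into particles was made after the values were seen. Named genes were called members, those with an adjusted p of 0.05 to 0.1, and in each family the 2 of smallest p, both extremes and the most counted; other members are named to complete a particle. In other splicing lists up to 4 called genes were named. Snrpg, Snrpd3, Gemin7, Hnrnph1 and Hnrnpr, the SR and hnRNP genes given by value alone, the minor spliceosome and SR kinase genes, the marker genes not called as deposited and other genes called with the trend removed were named after their values were seen. The values of 1 member, which is not drawn by name, and of 1 gene of another list are not reported here.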

Additional observations from a re-analysis of the deposited data

How the results depend on the processing

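The count of 6 genes called higher was within 1.5 times when the threshold was 0.1 (9), with a minimum log2 fold change of 0.25 (4), with adjustment over those genes that averaged 100 counts or more (7), after centring (6), with identical rows counted once (6), with RefSeq symbols (6 of 80) and without Hnrnpa1l2-ps2 (5). It was 1 at an adjusted p under 0.01, namely Hnrnpa1l2-ps2. It was 0 with a t distribution of 6 degrees of freedom (10 higher and 0 lower at an unadjusted p under 0.05; no gene of the whole table passed) and 0 with the null SD of 1.45 estimated from the central Wald statistics (7 higher and 0 lower; 5 genes of the table passed). Removal of the length, GC and mean count trend left 2 called higher and 1 called lower, and moved the median from 0.12 to 0.038; 1 of the 6 genes called by the authors' test was among them. No other alternative run called a member lower. The median was 0.12 in each of the remaining settings and 0.098 as a mean weighted by 1/SE squared. Removal of the trend turned the sign of 19 of the 79 members; the other alternatives leave fold changes as they are or, for centring, shift them all by 0.00071. Of the 28 members named by rule, with the trend removed 22 kept their side of the threshold, 5 were no longer called and 1 (Hnrnpu) was newly called. No paired analysis was possible because the deposited comparison has no values per library, and for the same reason no replicate could be left out. Depth limits Srsf12, whose 95% interval ran from -1.53 to 1.06 on the log2 scale.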

Other observations

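The minor spliceosome, which removes a small class of introns with U11 and U12 RNAs, was not part of the 79 genes. The 9 of its protein genes considered here were grouped after their values were seen, and 8 were above 0 in the authors' deposited table. They were Snrnp25 at 0.34 (SE 0.16, adjusted p 0.191), Zcrb1 at 0.30 (SE 0.09, adjusted p 0.0302), Snrnp48 at 0.28 (SE 0.15), Rnpc3 at 0.27 (SE 0.12, adjusted p 0.169), Snrnp35 at 0.17 (SE 0.22), Zrsr2 at 0.13 (SE 0.08), Zrsr1 at 0.06 (SE 0.12), Pdcd7 at 0.04 (SE 0.09) and Zmat5 at -0.15 (SE 0.28) in the authors' deposited table. The RNA genes Rnu11 (1.12, SE 0.49, adjusted p 0.158) and Rnu12 (0.92, SE 0.43, adjusted p 0.198) had higher values with wide errors in the authors' deposited table. Of the 9 protein genes, Zcrb1 was called, and it did not pass with the trend removed (adjusted p 0.239). Over all genes 50.1% were above 0 and 1.94% were called higher.

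Among the SR protein kinases and SR-related proteins, values of both signs occurred. At an unadjusted p under 0.05, 3 of 21 were higher (background 9.15%) and 2 were lower (background 10.5%). The kinase genes Clk2 (0.22, SE 0.10, adjusted p of 0.178), Srpk1 (-0.02, SE 0.08), Clk1 (-0.04, SE 0.13), Clk3 (-0.06, SE 0.11), Srpk2 (-0.09, SE 0.11) and Clk4 (-0.25, SE 0.17) were not called in the authors' deposited table. Nor were the SR-related genes Srrm2 (-0.16, SE 0.07) and Son (-0.05, SE 0.05) and the SR-like regulator Tra2b (0.18, SE 0.07, adjusted p of 0.115) in the authors' deposited table.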
